A study of Mus musculus with 18 samples.

Results

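Egr1, Egr2, Egr3, Nr4a1, Nr4a2, Nr4a3, Ier2, Ier3 and Btg2 are genes of the early transcriptional response to injury and stimulation, and their levels were followed in mouse retina after detachment. The 9 genes were taken by symbol, and the array annotation gave each at least 1 probe set, 13 in all out of 22626 tested, within 12393 named genes. The mice were Balb/cJ, and 1 uL of fluid placed under the retina detached it. The fluid was saline alone in the control groups and 10 uM INS37217 in saline in the treated groups. INS37217, also known as denufosol, activates the nucleotide receptor P2Y2. Both fluids were followed to 2 h, 24 h and 7 d, which gave 6 groups of 3 arrays, each array from a pool of more than 5 retinas. By the series' design text the retina had reattached but was misfolded at 24 h, and at 7 d the folds had resolved while function was still incomplete. All 6 groups carry the injection, no untreated retina was analysed here, and a pool cannot show the spread between animals.

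Early response genes are transcribed within minutes of a signal, from factors already present in the cell, and their RNAs are short lived. Egr1, Egr2 and Egr3 encode zinc finger transcription factors that bind GC-rich sites, and Nab1 and Nab2 encode corepressors that limit them. Nr4a1, Nr4a2 and Nr4a3 encode orphan nuclear receptors, which act without a known hormone and can pair with RXR receptors. Ier2 and Ier3 encode small proteins named for this response, of which Ier3 is linked to cell survival, and Btg2 encodes an antiproliferative protein that recruits the CCR4-NOT deadenylase. Many of these promoters are driven by serum response factor at the CArG box and by CREB at the cAMP response element.

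Of the 5 genes that were high at 2 h together, promoters are shown for Egr2, Nr4a1 and Btg2. That of Nr4a2, which moved little, is shown beside them. Of the 9 genes, 6 had RefSeq promoter windows (build GRCm38.p6) that could be shown, in 10 windows, of which 5 were of Egr2. In each window the 250 bases before the annotated start were searched on both strands for the CArG box, the full cAMP response element TGACGTCA, its core TGACG, the EGR sites GCGTGGGCG and GCGGGGGCG, and the Nr4a site AAAGGTCA. TGACGTCA contains TGACG, so such matches overlap. Matches are in capitals below, 5′ to 3′ along the gene.

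Egr2 (chr10:67537793-67537822, plus strand): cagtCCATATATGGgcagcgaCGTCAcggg
Nr4a1 (chr15:101266596-101266845, plus strand): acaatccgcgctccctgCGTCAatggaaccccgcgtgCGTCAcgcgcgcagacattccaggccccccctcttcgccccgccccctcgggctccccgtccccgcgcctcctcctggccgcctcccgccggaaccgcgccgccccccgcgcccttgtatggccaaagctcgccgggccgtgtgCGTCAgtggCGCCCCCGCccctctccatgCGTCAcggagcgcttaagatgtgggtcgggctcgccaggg
Btg2 (chr1:134079156-134079405, minus strand): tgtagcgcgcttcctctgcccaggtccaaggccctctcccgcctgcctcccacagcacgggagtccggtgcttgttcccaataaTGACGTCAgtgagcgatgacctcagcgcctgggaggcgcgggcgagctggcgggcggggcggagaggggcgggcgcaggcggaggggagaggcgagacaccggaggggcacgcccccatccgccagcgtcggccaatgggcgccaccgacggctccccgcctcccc
Nr4a2 (chr2:57124004-57124253, minus strand): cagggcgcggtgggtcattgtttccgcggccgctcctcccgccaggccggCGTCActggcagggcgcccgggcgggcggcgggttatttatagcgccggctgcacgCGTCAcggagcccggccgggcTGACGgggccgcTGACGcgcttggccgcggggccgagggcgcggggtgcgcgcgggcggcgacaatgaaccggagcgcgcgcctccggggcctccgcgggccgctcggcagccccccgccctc

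The short Egr2 stretch holds a CArG box followed by a TGACG core. It lies in 3 of the 5 Egr2 windows, and the box is 63, 64 and 124 bases before the annotated start of each. Of the other Egr2 windows, 1 holds a different CArG box. Over all 32851 windows, 1.47% held a CArG box. Among the 6 genes searched, Btg2 was the one with the full TGACGTCA, which 1.55% of windows held. Nr4a1, Nr4a2 and Nr4a3 each held 4 matches to TGACG. At least 1 match was present in 17.8% of windows and 4 or more in 0.137%. Nr4a1 also held 1 EGR site, present in 3.06% of windows. Ier3 held no match to any of these letters, and AAAGGTCA, at 1.34% of windows, was in no member window. A match is a description of letters and not a measured binding site.

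Gene positions below are those of GRCm38.p6. Values are the authors' RMA values, a log2 intensity per probe set, on which a step of 1 is a doubling. For 4 genes with more than 1 probe set, the set of highest mean is given first. Differences were tested with limma over all 22626 probe sets, each with its standard error (SE) and an adjusted p, and a gene was called at adjusted p under 0.05. Arrays of the same replicate number deviated together across groups, so the value with the replicate number in the fit, called the block, is given where it changes a call. As a check of the tissue, 5 rod marker genes had list means of 12.41 to 12.67 on the 2 h arrays. Groups were taken from the titles, since the source names of 8 of 9 INS37217 arrays mention saline only. For 1 array, saline 7 d replicate 2, another label gives 2 h, though its correlation over all probe sets was 0.954 to 0.994 with the other 7 d arrays and 0.947 to 0.980 with the 2 h arrays. Its Egr1 value of 8.84 lay within the range of the 7 d arrays. Without it no count of called members moved in a comparison that uses 7 d, and the count for saline 24 h minus 2 h went from 5 to 6.

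Egr1, Egr2, Nr4a1, Ier2 and Btg2 had the same order of times: the mean was highest at 2 h in saline, next at 2 h with INS37217, and lower at 24 h and 7 d with either fluid. The steps differed between genes, as the values below show. Egr3, Nr4a2, Nr4a3 and Ier3 moved by less than 0.7 between any of the 6 group means. Their ranges of group means were 0.31, 0.59, 0.50 and 0.66, against 1.45 for Ier2, 2.16 for Btg2, 2.30 for Egr2, 3.18 for Egr1 and 3.28 for Nr4a1.

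**Figure D1:**
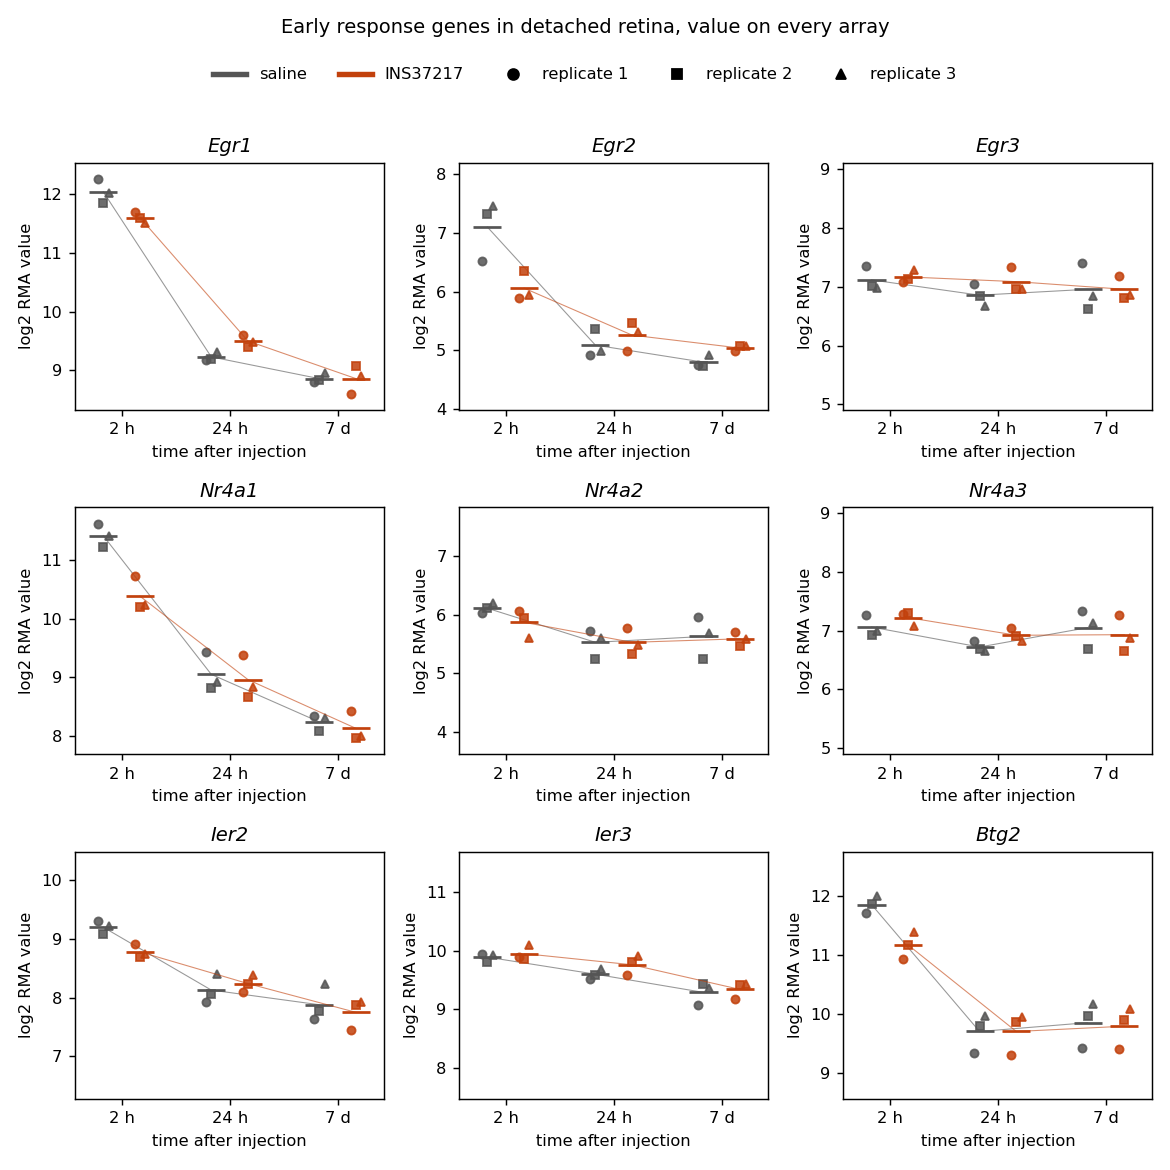
Log2 RMA value of each gene on each of the 18 arrays, by time after injection (horizontal axis), for saline (grey) and INS37217 (orange). Point shapes mark replicate numbers, bars are means of 3 arrays joined by thin lines, and each vertical axis spans the same log2 range around its own centre. Egr1, Egr2, Nr4a1, Ier2 and Btg2 stand highest in saline at 2 h, next in INS37217 at 2 h, and lower at 24 h and 7 d.

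Egr1 (chr18:34861207-34864956), the most studied factor of the family, was at 12.26, 11.85 and 12.01 in saline at 2 h and at 11.70, 11.59 and 11.50 with INS37217. At 24 h it was at 9.18, 9.20 and 9.32 in saline and at 9.61, 9.40 and 9.49 with INS37217. At 7 d it was at 8.80, 8.84 and 8.95 in saline and at 8.60, 9.07 and 8.90 with INS37217. From highest to lowest the group means ran saline 2 h (12.04), INS37217 2 h (11.60), INS37217 24 h (9.50), saline 24 h (9.23), and both 7 d groups (8.86). Only the 7 d groups overlapped with their neighbour in that order.

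Egr2 (chr10:67534469-67542188), a factor of myelinating and immune cells, was at 6.53, 7.32 and 7.45 in saline at 2 h and at 5.89, 6.35 and 5.95 with INS37217. The later values were 4.93, 5.36 and 4.99 in saline at 24 h, 4.99, 5.46 and 5.32 with INS37217 at 24 h, 4.75, 4.73 and 4.92 in saline at 7 d, and 4.99, 5.07 and 5.07 with INS37217 at 7 d. The 2 h groups were apart from each other and from all later groups. INS37217 24 h overlapped with saline 24 h, and saline 24 h with INS37217 7 d. INS37217 7 d lay above saline 7 d with no overlap. The further Egr2 probe set had means of 5.10 and 4.08 at 2 h and 3.44 to 3.56 later, and the lowest value in the whole table was 2.83. The files carry no detection calls. As a reference, 13 genes of tissues outside the eye had list means of 5.07 to 5.29 in the 6 groups, while the late Egr2 means were at most 5.26. Probe sets differ in brightness, so this sets no threshold, and the fall of Egr2 is given below on the log2 scale without a fold.

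Egr3 (chr14:70077317-70082613) lay between 6.62 and 7.40 on all 18 arrays. Its group means ran from 7.17 in INS37217 2 h to 6.86 in saline 24 h, and each neighbour in the order overlapped.

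Nr4a1 (chr15:101253902-101274795), the receptor also known as Nur77, was at 11.61, 11.22 and 11.41 in saline at 2 h and at 10.72, 10.20 and 10.23 with INS37217. At 24 h it was at 9.43, 8.81 and 8.92 in saline and at 9.38, 8.66 and 8.83 with INS37217. At 7 d it was at 8.34, 8.08 and 8.30 in saline and between 7.97 and 8.43 with INS37217. The means fell in the order saline 2 h (11.41), INS37217 2 h (10.38), saline 24 h (9.05), INS37217 24 h (8.96), saline 7 d (8.24) and INS37217 7 d (8.13). Within 24 h and within 7 d the 2 fluids overlapped, and the times did not.

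Nr4a2 (chr2:57106830-57124003), needed for dopamine neurons of the brain, had its highest mean, 6.11, in saline 2 h (6.03, 6.11 and 6.20) and 5.87 in INS37217 2 h (6.07, 5.94 and 5.61). The other 4 groups had means of 5.53 to 5.63, and all neighbours overlapped. Nr4a3 (chr4:48045078-48086447) lay between 6.65 and 7.34 on all arrays, with its highest mean, 7.22, in INS37217 2 h and its lowest, 6.72, in saline 24 h, and all neighbours in the order overlapped. The further probe sets of these receptors had group means of 5.18 to 5.44 for Nr4a2 and 4.78 to 5.19 for Nr4a3. These lay near the reference list means of 5.07 to 5.29, and the first Nr4a2 set not far above. Whether weak signal limits the range of these sets was not tested.

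Ier2 (chr8:84661331-84662852) was at 9.31, 9.08 and 9.22 in saline at 2 h and at 8.91, 8.70 and 8.74 with INS37217. Its later values were 7.93, 8.06 and 8.41 in saline at 24 h, 8.10, 8.23 and 8.38 with INS37217 at 24 h, 7.63, 7.78 and 8.23 in saline at 7 d, and 7.45, 7.88 and 7.93 with INS37217 at 7 d. The 2 h groups stood apart from each other and from the rest, and the 4 later groups overlapped with their neighbours. Ier3 (chr17:35821713-35822911) had a slower course, with means of 9.89 and 9.95 at 2 h, 9.60 and 9.76 at 24 h and 9.29 and 9.34 at 7 d, saline first. Its sole gap in the order lay between saline 24 h (9.52, 9.59 and 9.68) and INS37217 7 d (9.18, 9.41 and 9.44).

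Btg2 (chr1:134074865-134079155) was at 11.71, 11.87 and 12.01 in saline at 2 h and at 10.93, 11.17 and 11.40 with INS37217. All 12 later values lay between 9.30 and 10.16, with means of 9.70 and 9.70 at 24 h and 9.85 and 9.79 at 7 d. The 2 h groups were apart from each other and from the later ones, which overlapped. The further Btg2 probe set had means of 10.89 and 10.03 at 2 h, saline first, and 8.64 to 8.84 later.

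The comparison at 2 h asked what INS37217 changes while early response genes are high. Egr1, Egr2, Nr4a1, Ier2 and Btg2 were each lower on all 3 INS37217 arrays than on any saline array, and Egr3, Nr4a2, Nr4a3 and Ier3 overlapped. Such a gap to the low side was present in 3.08% of all probe sets. Without the block no member was called, against 0.128% of all probe sets called in either direction. An unadjusted p under 0.05 was seen for 5 members, and the share of all probe sets at that threshold was not counted. With the block Egr2, Nr4a1 and Btg2 fell, 3 of 9 genes, against 0.380% of all probe sets called as lower. The median difference of the 9 genes was -0.42 and that of all probe sets 0.01. These genes were set apart with earlier results of the same arrays known, so the count is not independent evidence.

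Egr2 differed by -1.04, or 2.05-fold lower (SE 0.21, adjusted p = 0.074, block adjusted p = 2.3e-04). Its further probe set gave -1.02 (SE 0.21, adjusted p = 0.091, block adjusted p = 3.5e-04). Nr4a1 differed by -1.03, or 2.04-fold lower (SE 0.21, adjusted p = 0.089, block adjusted p = 7.9e-06). Btg2 differed by -0.70 (SE 0.24, adjusted p = 0.84, block adjusted p = 2.5e-04) and by -0.86 on its further probe set (SE 0.25, adjusted p = 0.56, block adjusted p = 2.6e-05). These 3 genes were the ones in which the block changed the call.

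Egr1 and Ier2 were lower by less. Egr1 differed by -0.44 (SE 0.13, adjusted p = 0.55, block adjusted p = 0.07) and Ier2 by -0.42 (SE 0.17, adjusted p = 1, block adjusted p = 0.12). Nr4a2 stood at -0.24, with an unadjusted 95% confidence interval of -0.63 to 0.15, and Ier3 at 0.06 (-0.20 to 0.32). Egr3 stood at 0.05 (-0.35 to 0.45) and Nr4a3 at 0.16 (-0.20 to 0.53).

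**Figure D2:**
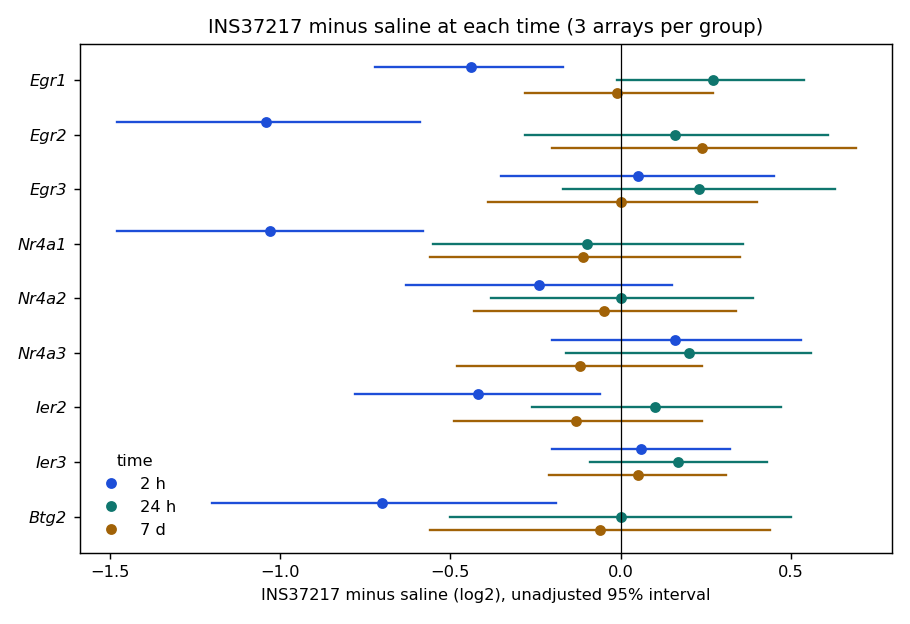
INS37217 minus saline on the log2 scale (horizontal axis) for each gene at 2 h (blue), 24 h (green) and 7 d (brown), with points for the difference of means of 3 arrays and lines for unadjusted 95% intervals. At 2 h Egr2 (-1.04) and Nr4a1 (-1.03) lie farthest below 0, while at 24 h and 7 d the points lie between -0.13 and 0.27.

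The size of the 2 h difference between arrays of the same replicate number varied by gene. For the 5 genes whose groups did not overlap all such differences are negative by construction. Nr4a1 gave -0.89, -1.02 and -1.18 for replicates 1, 2 and 3. Btg2 gave -0.78, -0.70 and -0.61, and Ier2 gave -0.40, -0.38 and -0.48. Egr1 gave -0.56, -0.26 and -0.51, and Egr2, the widest, gave -0.64, -0.97 and -1.50. Nr4a2 was negative in 2 of 3, Egr3 and Ier3 in 1, and Nr4a3 in 0. Without saline 2 h replicate 1, in which Egr2 was lowest of its group, Egr2 was called without the block (-1.32, adjusted p = 0.011).

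**Figure D3:**
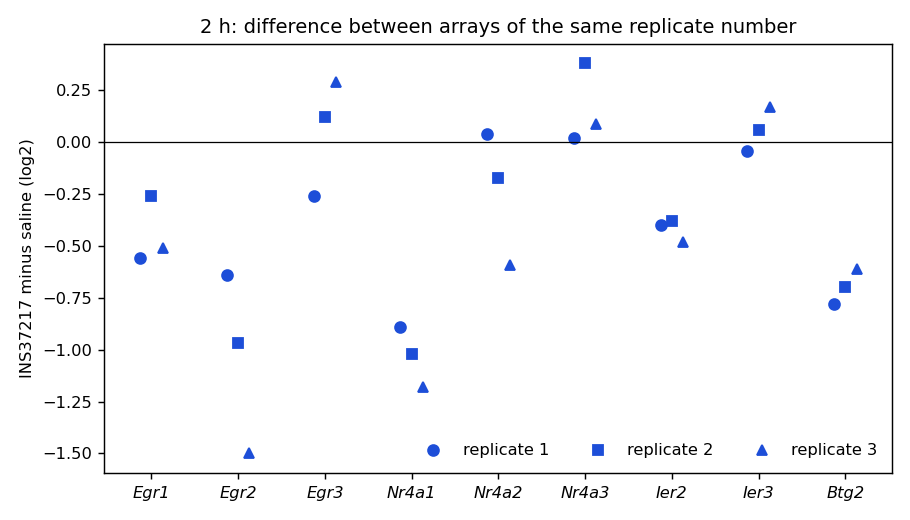
INS37217 minus saline at 2 h on the log2 scale (vertical axis) between arrays of the same replicate number, 3 points for each gene. Egr1, Egr2, Nr4a1, Ier2 and Btg2 lie below 0 for all 3 numbers, from -0.26 to -1.50, and the other genes lie on both sides of 0 or, for Nr4a3, at or above 0.02.

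Other properties of the arrays also moved with the fluid at 2 h, and their part in the differences of the early genes was not tested. For beta-actin, the excess of 3′ over 5′ signal, a sign of RNA quality, was 0.93 to 1.10 in saline and 0.70 to 0.78 with INS37217, and group means were 0.60 to 0.65 later. The same excess for Gapdh overlapped between the fluids at 2 h, at -0.07 to 0.07 in saline and -0.26 to 0.00 with INS37217. All 7 measured lens markers were higher with INS37217, and their mean level was 11.77 to 11.85 against 11.07 to 11.26. Of these, 3 were called without the block, Crygd (1.15, adjusted p = 0.0039), Crybb1 (0.72, adjusted p = 0.012) and Bfsp1 (0.97, adjusted p = 0.024). Of 6 pigment cell markers 4 were lower, with list means of 8.35 to 8.71 against 8.78 to 9.03. Pmel (-1.22, adjusted p = 0.0015), Tyrp1 (-1.01, adjusted p = 0.015) and Dct (-0.90, adjusted p = 0.24) were lower. Rlbp1 stood at -0.04, while Rpe65 (0.32) and Rgr (0.40) were higher. All 5 fibroblast markers were lower, at 5.47 to 5.81 against 5.88 to 6.15, and all 3 erythroid markers, at 5.74 to 5.98 against 6.29 to 6.52. Single genes made up much of both shifts. Dcn differed by -1.14 and the other fibroblast markers by -0.30 to -0.03. Alas2 differed by -1.37 (adjusted p = 0.0049), Slc4a1 by -0.18 and Hba-a1 by -0.08. These lens, pigment and erythroid genes were thus called at 2 h without the block, where no early gene member was. Smooth muscle and pericyte markers stood at 6.94 to 7.35 against 7.24 to 7.60, with 3 of 5 lower. Microglia and macrophage markers overlapped (5.78 to 5.97 against 5.79 to 5.93), as did those of neutrophils (5.83 to 6.04 against 5.78 to 6.04) and rods (12.43 to 12.67 against 12.41 to 12.67). Bipolar cell markers stood apart, at 8.12 to 8.32 against 8.39 to 8.43, and of these 3 genes Trpm1 differed by -0.72 (SE 0.27, adjusted p = 1, block adjusted p = 5.7e-04). In pooled retina, fewer cells of a type and less RNA per cell cannot be told apart.

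At 24 h and 7 d no difference between the fluids was found among these genes. At 24 h the 9 differences ran from -0.10 to 0.27 and at 7 d from -0.13 to 0.24. No member was called at either time with or without the block. The smallest adjusted p at 24 h was 1, and 0.46 with the block, and at 7 d it was 1, and 0.97 with the block. No member had an unadjusted p under 0.05 at either time, and with the block 1 did at 24 h and none at 7 d. Of all probe sets 0.119% were called at 24 h and 0.888% with the block, and 0.150% and 0.641% at 7 d. Egr1 at 24 h (0.27, SE 0.13) and Egr2 at 7 d (0.24, SE 0.21) were the cases in which INS37217 lay above saline on all 3 arrays. The share of all probe sets with such a gap was not counted at these times, so these gaps are description only.

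Whether the difference at 24 h departs from that at 2 h was tested as an interaction. All 9 genes had a positive value, with a median of 0.52 against -0.01 for all probe sets. Without the block no member was called, against 0.0575% of all probe sets called in either direction. An unadjusted p under 0.05 was seen for 4 members, and the share of all probe sets at that threshold was not counted. With the block Egr1 (0.71, SE 0.17, adjusted p = 0.048), Egr2 (1.20, SE 0.20, adjusted p = 0.0037), Nr4a1 (0.93, SE 0.14, adjusted p = 0.0019) and Btg2 (0.70, SE 0.14, adjusted p = 0.012) were called as higher, against 0.442% of all probe sets. Without the block their adjusted p values were 0.46, 0.39, 1 and 1. The SE values in this paragraph are those of the fit with the block. The interaction, the 2 h difference and the fall in saline all share the saline 2 h arrays. Egr2 was near the reference level at 24 h in both fluids, and whether weak signal limits its difference there was not tested.

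In saline Egr1, Egr2, Nr4a1, Ier2 and Btg2 fell from 2 h to 24 h, 5 of 9, against 2.93% of all probe sets called as lower. Egr1 fell by 2.81, or 7.00-fold (SE 0.13, adjusted p = 3.0e-09), and Nr4a1 fell by 2.36, or 5.13-fold (SE 0.21, adjusted p = 3.6e-06). Btg2 fell by 2.16, or 4.47-fold (SE 0.24, adjusted p = 2.6e-05), Egr2 fell by 2.01 (SE 0.21, adjusted p = 1.5e-05), and Ier2 fell by 1.07, or 2.10-fold (SE 0.17, adjusted p = 9.1e-04). With the block Nr4a2 (-0.59, adjusted p = 0.064, block adjusted p = 0.0018), Nr4a3 (-0.34, adjusted p = 0.3, block adjusted p = 0.034) and Ier3 (-0.29, adjusted p = 0.2, block adjusted p = 0.031) were called too, 8 of 9 in all, against 12.9% of all probe sets. The further probe sets of Nr4a2 (-0.26, block adjusted p = 0.063) and Nr4a3 (-0.24, block adjusted p = 0.17) were not called, with or without the block. Egr3 stood at -0.26 (SE 0.19, adjusted p = 0.49).

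With INS37217 Egr1, Egr2, Nr4a1 and Btg2 fell from 2 h to 24 h, 4 of 9, against 3.30% of all probe sets, and Ier2 joined them with the block, against 10.5%. Egr1 fell by 2.10, or 4.28-fold (SE 0.13, adjusted p = 4.2e-08), and Btg2 fell by 1.46, or 2.76-fold (SE 0.24, adjusted p = 8.6e-04). Nr4a1 fell by 1.43, or 2.69-fold (SE 0.21, adjusted p = 4.3e-04), and Egr2 fell by 0.81 (SE 0.21, adjusted p = 0.028). The further Egr2 probe set stood at -0.54 (SE 0.21, adjusted p = 0.18, block adjusted p = 0.01), and Ier2 at -0.55 (SE 0.17, adjusted p = 0.075, block adjusted p = 0.0039). The call of Egr2 was lost without INS37217 2 h replicate 2 (-0.66, adjusted p = 0.13), INS37217 2 h replicate 3 (-0.86, adjusted p = 0.059), INS37217 24 h replicate 1 (-0.67, adjusted p = 0.11) or INS37217 24 h replicate 3 (-0.84, adjusted p = 0.072), and after a second quantile normalization (-0.77, adjusted p = 0.064).

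**Figure D4:**
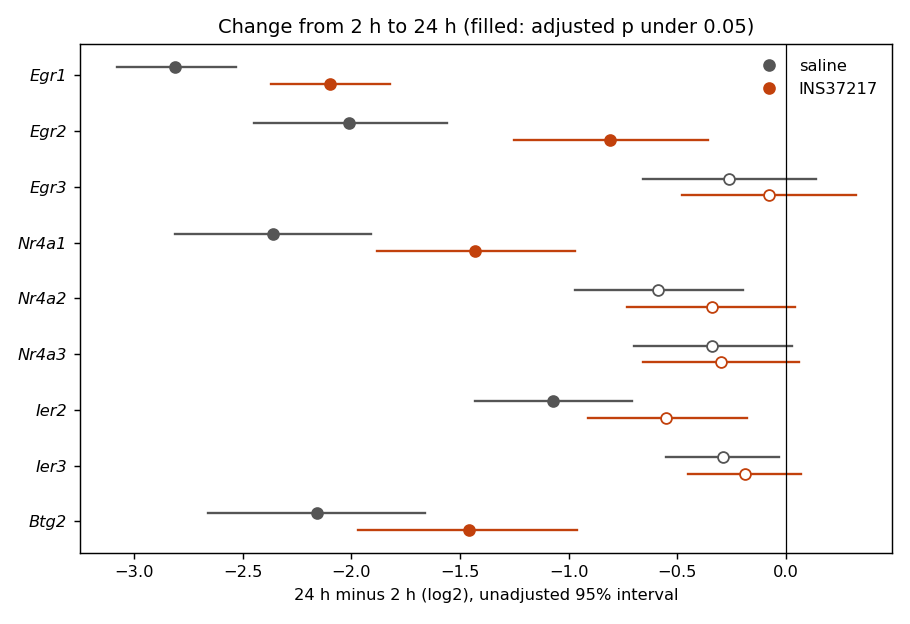
Change from 2 h to 24 h on the log2 scale (horizontal axis) for each gene in saline (grey) and INS37217 (orange), with lines for unadjusted 95% intervals and filled points for adjusted p under 0.05 without the block. The saline value lies below the INS37217 value for each of the 9 genes. The gap is widest for Egr2, at -2.01 against -0.81, and narrowest for Nr4a3, at -0.34 against -0.30. At 24 h the Egr2 means (5.09 in saline, 5.26 with INS37217) lay near the reference list means of 5.07 to 5.29.

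Between 2 h and 24 h other marker lists moved too, and their part in the fall of the early genes was not tested. Of all probe sets 2.93% were called as lower in saline and 3.30% with INS37217, and the share called as higher was not counted. In saline all 7 lens markers were called as higher, with list means of 11.07 to 11.26 at 2 h and 11.78 to 11.93 at 24 h, and with INS37217 none was, at 11.77 to 11.85 and 11.81 to 11.86. Rod markers were called as lower for 2 of 5 genes in saline (12.41 to 12.67, then 12.21 to 12.23) and 3 of 5 with INS37217 (12.43 to 12.67, then 12.15 to 12.22). Of 3 erythroid markers 1 was called as lower in each fluid, and their list means in saline were 6.29 to 6.52 and then 5.43 to 5.78. Microglia and macrophage markers were called as higher for 1 of 8 genes in saline and 4 of 8 with INS37217, and neutrophil markers for 2 of 6 in each. The beta-actin excess was 0.93 to 1.10 at 2 h and 0.52 to 0.69 at 24 h in saline, and 0.70 to 0.78 and 0.61 to 0.65 with INS37217. The Gapdh excess was -0.07 to 0.07 and then -0.39 to -0.13 in saline. With INS37217 it was -0.26 to 0.00 and then -0.45 to -0.20.

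From 24 h to 7 d Egr1 fell with INS37217, and Nr4a1 fell in both fluids with the block alone. In saline no member was called without the block, against 0.977% of all probe sets called as lower. An unadjusted p under 0.05 was seen for 3 members, and the share of all probe sets at that threshold was not counted. Nr4a1 stood at -0.81 (SE 0.21, adjusted p = 0.089) and fell with the block (adjusted p = 1.4e-05), the 1 member of 9, against 4.65% of all probe sets. Egr1 stood at -0.37 in saline (SE 0.13, adjusted p = 0.3, block adjusted p = 0.069). With INS37217 Egr1 fell by 0.64 (SE 0.13, adjusted p = 0.011), 1 of 9 against 1.27%, and that call was lost without INS37217 24 h replicate 1, without INS37217 7 d replicate 1, and when only the arrays compared were fitted. Without INS37217 7 d replicate 1 the count stayed at 1, with Nr4a1 called in its place. With the block Egr1, Nr4a1 (-0.82, adjusted p = 8.1e-06 with the block), Ier2 (-0.48, adjusted p = 0.022 with the block) and Ier3 (-0.42, adjusted p = 0.0084 with the block) fell, against 4.07%. Btg2 did not follow them: it stood at 0.15 (SE 0.24) in saline and at 0.09 (SE 0.24) with INS37217. Over the same interval pigment cell markers were called as higher for 2 of 6 genes in saline and 5 of 6 with INS37217, and microglia and macrophage markers for 3 and 4 of 8, and their part was not tested. The share of all probe sets called as higher was not counted.

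Genes around these families were read from lists chosen by function, with earlier results known. From 2 h to 24 h, 2.93% of all probe sets were called as lower in saline and 3.30% with INS37217. With the block these shares were 12.9% and 10.5%. Of the corepressors, Nab1 and Nab2 fell from 2 h to 24 h in both fluids, by 0.52 and 0.54 in saline (adjusted p = 0.0095 and 0.0047) and by 0.59 and 0.57 with INS37217 (adjusted p = 0.0034 and 0.0029). They were the 2 called of 5 genes without the block, the others being Egr4, Sp1 and Wt1. With the block Egr4 (-0.37, block adjusted p = 0.0076) and Sp1 (-0.43, block adjusted p = 0.046) were called too in saline, 4 of 5, and with INS37217 the count stayed at 2. At 2 h INS37217 and saline differed by 0.04 for Nab1 and 0.06 for Nab2, with 0 of the 5 called by limma with or without the block. Of the partners of Nr4a receptors, Rxra fell in saline (-0.43, adjusted p = 0.048), 1 of 3. With INS37217 none was called without the block, and Rxrg was called as lower with it (-0.25, adjusted p = 0.22, block adjusted p = 0.045). None of 9 measured genes of the BTG, TOB and CCR4-NOT group was called in either fluid without the block. With the block Tob2 (-0.53, block adjusted p = 0.016) and Cnot6 (-0.37, block adjusted p = 0.015) were lower and Cnot4 (0.46, block adjusted p = 0.0026) higher in saline, and Cnot8 was lower with INS37217 (-0.30, block adjusted p = 0.031). Beside the shares of all probe sets, such small counts in the RXR and BTG lists are description only.

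Among kinases and factors upstream of early genes, 2 of 18 fell and 1 rose from 2 h to 24 h in saline, where 2.93% of all probe sets were called as lower. With the block 4 of 18 fell and 2 rose in each fluid, against 12.9% called as lower in saline and 10.5% with INS37217. The genes added were Elk1 and Mrtfa, lower, and Map2k1, higher, with block adjusted p values in saline of 9.8e-04, 1.6e-04 and 0.016. Srf, the factor that binds CArG boxes, fell by 1.32 (adjusted p = 3.5e-05) in saline and by 0.96 (adjusted p = 6.1e-04) with INS37217. Crebbp, a coactivator of CREB, fell by 0.51 (adjusted p = 0.029) and 0.58 (adjusted p = 0.013). Srf and Crebbp were the 2 of 18 that fell with INS37217 without the block, against 3.30% of all probe sets. Creb1 itself rose in saline by 1.14 (adjusted p = 0.034) and stood at 0.97 with INS37217 (adjusted p = 0.081, block adjusted p = 9.4e-06). Srf is also counted among the 42 further early genes below. At 2 h none of the 18 was called between the fluids with or without the block, and Srf stood at -0.38 (SE 0.15, adjusted p = 1, block adjusted p = 0.054).

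Of the other early response genes, some but not all were lower at 24 h than at 2 h. In saline 7 of 12 AP-1 factors, 5 of 8 Klf and Dusp genes and 18 of 42 further early genes were called as lower, and with INS37217 6, 5 and 16. Of all probe sets 2.93% were called as lower in saline and 3.30% with INS37217. With the block these counts were 11, 6 and 29 in saline, against 12.9% of all probe sets. With INS37217 they were 9, 5 and 29, against 10.5%. Of the 42 further genes, Cebpd and Rnd3 were called as higher in saline with the block, and Cebpd with INS37217. Between the fluids at 2 h none of the genes in these 3 lists was called by limma without the block. With the block 3 of 12 AP-1 factors fell, Fosb, Junb and Atf3, and 1 of 8 Klf and Dusp genes, Klf4. Of all probe sets 0.380% were called as lower at 2 h with the block. Of the 42 further genes 3 fell and 3 rose with the block, and the share of all probe sets called as higher was not counted. Those that fell were Ccn1 (-0.74), Ccn2 (-0.84) and Zfp36l1 (-0.44), and those that rose were Id2 (0.55), Rnd3 (0.53) and Gadd45b (0.46). Their adjusted p values with the block ran from 9.7e-05 for Ccn2 to 0.044 for Gadd45b. The list of 42 had a median of 0.01 at 2 h, the same as all probe sets, against -0.42 for the 9 members. AP-1 factors had a median of -0.13, with 8 of 12 genes lower. For Klf and Dusp genes the median was -0.08, with 5 of 8 lower.

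Outside the members, the 6 genes whose course over the 18 arrays was most like the mean of the 9 were Zfp36, Arid5a, Fos, Klf4, Ccn1 and Dusp1, out of 565 genes with group means at least 1 apart. Their Pearson r was 0.975 to 0.985 after the mean of each replicate number was removed, and the arrays share their groups and normalization. Zfp36, whose product speeds the decay of short-lived RNAs, had means of 9.73 in saline and 9.27 with INS37217 at 2 h and 6.84 to 7.50 later. Fos stood at 12.18 and 11.90 at 2 h and at 9.03 to 9.89 later. Of the members, Egr1 (0.991), Nr4a1 (0.983), Btg2 (0.971), Egr2 (0.962) and Ier2 (0.961) had the highest r with the mean of the 9, and Nr4a2 (0.814), Ier3 (0.799), Egr3 (0.509) and Nr4a3 (0.491) lower values. Each member is part of that mean, and those of widest range weigh most in it, so these values are in part fixed by construction.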

How the data were processed

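Per the submitters' processing notes the authors summarised 18 Affymetrix arrays by RMA, and the deposited values are log2 (2.83 to 14.15). Its version and settings: not given in the sources used here. No value was normalized again for the main results, and 64 Affymetrix controls were left out. One limma model (version 3.58.1, R 4.3.3) with a mean for each of 6 groups was fitted to all 18 arrays, and its moderated p-values were adjusted over 22626 probe sets (Benjamini-Hochberg). The series' design text describes the 3 arrays of a group as biological replicates. Their small number limits how exact a value is. Symbols were read from the platform's annotation and updated through RefSeq: 20380 probe sets had 1 gene, 691 several and 1555 none. A gene is represented by its probe set of highest mean.

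Whether replicate numbers pair the arrays was checked on deviations from group means: the 45 pairs of the same number across groups correlated at 0.426 to 0.921, numbers 2 and 3 at 0.363 to 0.725, and number 1 with 2 or 3 at -0.847 to -0.501. Deviations from a group mean cancel within the group, so the negative sign for number 1 follows once numbers 2 and 3 deviate together. The replicate 1 arrays thus stood apart from the others. The values given first have no block. No source says what the numbers stand for.

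All members were named. Further genes were the 6 most like the members' mean and up to 3 of largest difference at 2 h per function list, and list genes called in a comparison are named as well, chosen after their values were seen. Members and lists were chosen with earlier results of these data known. Alternatives were a second quantile normalization, equal medians, a level filter, trended and robust eBayes, a fit of the compared groups alone, the replicate block, averaging a gene's probe sets, replicates 2 and 3 alone, and each array left out. The steps were tested on simulated data. Egr3 and Ier2 promoters are not shown here.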

Additional observations from a re-analysis of the deposited data

How the results depend on the processing

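The count of called members stayed at 0 for INS37217 against saline at 24 h and at 7 d under all 9 alternatives and all 18 omissions of 1 array. At 2 h the count was 0, and it was 3 with the replicate block, 3 with only replicates 2 and 3, 3 with both together (Egr2, Nr4a1 and Btg2 each time) and 2 with the mean of a gene's probe sets (Egr2 and Btg2). The interaction had 0, and 4 with the replicate block, 1 with the mean of the probe sets, 2 with only replicates 2 and 3 and 3 with both together. For both, omitting 1 array gave 0 to 1, with Egr2 called without saline 2 h replicate 1. Saline 24 h minus 2 h had 5 and 8 with the replicate block, and 5 to 6 with 1 array omitted. INS37217 24 h minus 2 h had 4 and 3 to 5 over all settings. Saline 7 d minus 24 h had 0, and 1 (Nr4a1) with the replicate block, with only replicates 2 and 3 and with both. INS37217 7 d minus 24 h had 1, and 4 with the replicate block, 3 with only replicates 2 and 3 and with both, 2 with the mean of the probe sets, 2 after the filter on level and 0 with only the arrays compared. With 1 array omitted it was 0 to 2, with 2 without INS37217 2 h replicate 1 or saline 24 h replicate 1. The level filter tests fewer probe sets and leaves out Egr2 and Nr4a2. With only the arrays compared fewer samples set the spread. For the other changes the cause was not tested.

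Signs turned only near 0. The interaction of Egr3 (0.18) was 0.00 and that of Nr4a3 (0.04) was -0.04 with only replicates 2 and 3, with or without the block. With 1 array omitted, Egr3 at 2 h ran from -0.01 to 0.17, Ier3 at 2 h from -0.01 to 0.11 and the interaction of Nr4a3 from -0.07 to 0.11. Beyond the calls named here and in the results, the replicate block changed no call of a member at its probe set of highest mean.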

Other observations

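Some early genes were not lower with INS37217 at 2 h. Ptgs2, the inducible cyclooxygenase, had means of 6.71 with INS37217 and 6.14 with saline (0.57, SE 0.18, adjusted p = 0.66, block adjusted p = 0.06). Inhba, a subunit of activin, had 8.66 and 8.24 (0.42, SE 0.13, adjusted p = 0.66, block adjusted p = 0.059), and Fosl1, an AP-1 factor, had 8.14 and 7.77 (0.37, SE 0.28, adjusted p = 1, block adjusted p = 0.22). In all 3 the INS37217 arrays lay above the saline arrays with no overlap, the opposite direction to Egr1, Egr2, Nr4a1, Ier2 and Btg2. None of these 3 was called with or without the block. The share of all probe sets with a gap to the high side was not counted. Maff, a small Maf factor, had 10.03 and 9.89 (0.14, SE 0.18) at 2 h and fell by 4.29 in saline and by 4.16 with INS37217 to 24 h (adjusted p = 1.1e-09 and 2.0e-09). These genes were chosen after their values were seen.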
